A study of Rattus norvegicus with 6 samples.

Results

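Transcripts of 9 genes of the dystrophin complex and of the costamere were followed in rat heart: Dmd, Utrn, Dag1, Sgca, Sgcb, Sgcd, Lama2, Itga7 and Vcl. They were taken by symbol from a table of read counts with 17487 symbols, with the rows of a symbol summed. The table held rows for 8 of the 9 genes, 6 had counts, and all 6 of these passed the filter on low counts. Lama2 was not analysed here. Hearts came from 6 adult male Wistar rats, an outbred strain, with 1 RNA library per animal. In the doxorubicin group 3 rats had weekly tail vein injections of the anthracycline doxorubicin hydrochloride at 3.75 mg/kg for 4 weeks. In the control group 3 rats had vehicle, 0.9% sodium chloride, on the same schedule. No allele or other agent was named for either group. The region of the heart and the interval after the last dose were not given in the sources used here.

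Dystrophin, encoded by Dmd, binds actin filaments under the membrane of a muscle fibre and holds the membrane protein dystroglycan, the product of Dag1. Dystroglycan binds laminin outside the cell, including the laminin alpha 2 chain encoded by Lama2, and the sarcoglycans (Sgca, Sgcb, Sgcd) steady this link. Utrophin, encoded by Utrn, is a close relative of dystrophin that can take its place. At the costamere, the rib over each Z-disc, integrin alpha 7 (Itga7) is a second laminin receptor, and vinculin (Vcl) ties integrins and other adhesions to actin. Loss of several of these proteins causes muscular dystrophy with cardiomyopathy.

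No member passed the test for a difference between doxorubicin and control hearts. Of the 6 members tested, 0 had an adjusted p under 0.05 in edgeR's quasi-likelihood test with Benjamini-Hochberg adjustment over 9205 symbols, against 0.0543% of all symbols. At an unadjusted p under 0.05 there were also 0 of 6 members, against 8.1% of all symbols. DESeq2 likewise called 0 of the 6, against 75 of the 13048 symbols for which it gave a p-value. The fitted log2 fold changes ran from -0.25 for Dag1 to 0.47 for Utrn, with a median of -0.14 for the 6 members against 0.02 for all symbols. Values below are CPM (a count divided by its library's total, brought to one scale with trimmed mean of M-values factors), and fold changes are doxorubicin over control. Values of a group are given for its animals 1, 2 and 3 in that order, and the library of an animal carries its number. No transcript lengths were at hand, so levels are compared between groups and not between genes.

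Dmd and Sgcd were listed at 0 counts in each of the 6 libraries. Dmd stood on 4 rows of the table and Sgcd, which encodes delta-sarcoglycan, on 2 rows. The 6 members with counts each stood on 1 row. A count of 0 allows up to 3 counts per library, or 0.855 to 1.35 CPM, for reads that the counting gave to these rows. How the counting treated reads shared by several rows was not given in the sources used here, so no level of Dmd or Sgcd in these hearts can be read from the zeros. The planned ratio of Utrn to Dmd counts could not be formed.

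The number of rows and the zeros went together across the table. Of 38 symbols on 4 rows, 27 (71.1%) had 0 counts in all libraries, as had 180 of 408 symbols on 2 rows (44.1%) and 4146 of 16888 symbols on 1 row (24.5%). All 38 symbols on 4 rows were matched to the RefSeq gene table of GRCr8, and for 38 of them the row number equalled the number of curated RefSeq transcripts listed there. For Dmd that number was 4 and for Sgcd 2. The match was not complete over the table: Sgca had 3 curated transcripts but stood on 1 row. Of 14995 matched symbols on 1 row, the numbers were equal for 13952. Plec, which encodes plectin, a large cytoskeletal linker at the costamere, was a similar case with 11 rows and at most 6 counts in any library. Not every gene on several rows was near 0. Ldb3, on 5 rows, had 153 to 268 counts per library, and Ank3, on 2 rows, had 57 to 96. Both were named after their values were seen. Whether shared reads account for the zeros of symbols on several rows was not tested.

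**Figure D1:**
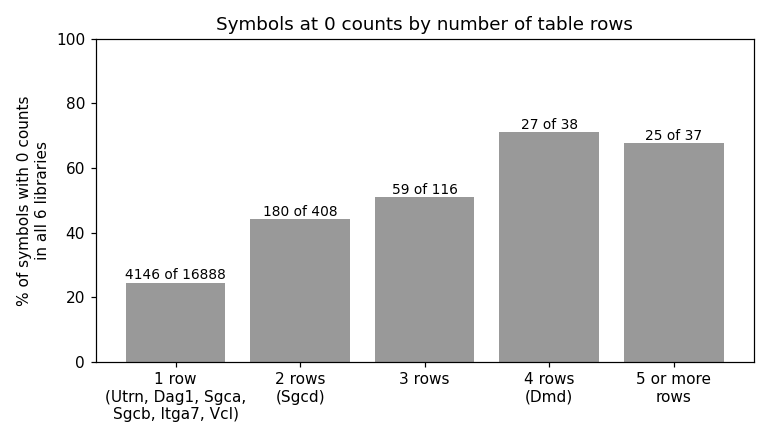
The bars give the percentage of symbols with 0 counts in all 6 libraries (vertical axis) by the number of table rows a symbol stood on (horizontal axis), with counts of symbols above each bar and members named below. The share is 24.5% for symbols on 1 row and 71.1% for symbols on 4 rows, the class of Dmd.

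RefSeq promoter windows of GRCr8, 250 bases before to 50 after a start, were found for 7 of the 9 members; Dag1 and Itga7 had none. These windows are annotation and not the build mRatBN7.2 named in the submitters' processing notes, and no reads were mapped to them here. Windows of Dmd and Utrn are shown because Dmd was the member on the most rows and Utrn is its relative on 1 row. Dmd had windows at chrX:51205836-51206135 and, far downstream in the same gene, at chrX:53278763-53279062, both on the plus strand. Another Dmd window, at chrX:53278794-53279093, overlaps the downstream one and is not shown. The Utrn window lay at chr1:9044438-9044737 on the minus strand. Sequences run 5′ to 3′ in the direction of transcription, and capitals mark the GC box, searched as GGGCGG and its reverse complement CCGCCC, overlapping matches included.
Dmd upstream start: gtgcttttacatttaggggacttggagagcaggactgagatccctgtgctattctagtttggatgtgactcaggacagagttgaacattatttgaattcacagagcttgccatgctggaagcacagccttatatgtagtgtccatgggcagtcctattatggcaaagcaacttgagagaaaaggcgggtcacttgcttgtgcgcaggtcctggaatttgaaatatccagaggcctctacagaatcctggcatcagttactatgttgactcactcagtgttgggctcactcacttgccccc
Dmd downstream start: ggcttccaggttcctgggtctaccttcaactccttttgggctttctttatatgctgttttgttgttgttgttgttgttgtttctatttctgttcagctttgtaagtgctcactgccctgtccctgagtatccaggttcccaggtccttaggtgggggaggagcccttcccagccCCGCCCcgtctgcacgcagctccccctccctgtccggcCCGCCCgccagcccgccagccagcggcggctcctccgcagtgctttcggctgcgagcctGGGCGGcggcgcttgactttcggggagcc
Utrn start: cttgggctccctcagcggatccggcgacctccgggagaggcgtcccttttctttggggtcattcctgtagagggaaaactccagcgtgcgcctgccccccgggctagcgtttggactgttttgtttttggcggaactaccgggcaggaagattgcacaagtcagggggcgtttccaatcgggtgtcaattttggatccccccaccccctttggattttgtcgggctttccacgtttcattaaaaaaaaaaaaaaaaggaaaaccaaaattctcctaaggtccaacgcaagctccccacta
The upstream Dmd window was 47.3% G and C with 2 CpG dinucleotides and 0 GC boxes. The downstream Dmd window was 61.3% G and C with 16 CpG dinucleotides and 3 GC boxes. The Utrn window was 53% G and C with 16 CpG dinucleotides and 0 GC boxes. Over all 33469 windows of this length 33.1% held a GC box, and the median was 7 CpG dinucleotides. A match is a run of letters and not a shown binding site.

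Utrn had the highest fold change of the 6 members, and its groups overlapped. The counts were 55, 111 and 146 in control rats 1 to 3 and 104, 146 and 257 in doxorubicin rats 1 to 3. After scaling the levels were 21.0, 49.3 and 41.5 CPM in control and 33.4, 45.6 and 75.7 CPM in doxorubicin hearts. Control library 1 was the lowest of the 6 and doxorubicin library 3 the highest, and the other 4 libraries lay between 33.4 and 49.3 CPM with the groups mixed. Means were 37.3 ± 14.6 CPM in control and 51.6 ± 21.8 CPM in doxorubicin (SD, n = 3). Utrn had a log2 fold change of 0.47 (SE 0.33, 95% interval -0.24 to 1.18), with an adjusted p of 0.748 in edgeR's quasi-likelihood test. The interval runs from 0.848-fold to 2.27-fold. Without control library 1 the log2 fold change was 0.20, and without doxorubicin library 3 it was 0.09, so the value rested on these libraries. Leaving out control library 2 gave 0.72 and leaving out doxorubicin library 1 gave 0.71, neither past the threshold.

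Dag1, the gene of the laminin receptor at the centre of the complex, was the only tested member whose groups did not overlap. Its levels were 393, 340 and 326 CPM in control rats 1 to 3 and 255, 317 and 317 CPM in doxorubicin rats 1 to 3. Each doxorubicin heart was thus below each control heart, by a narrow margin between control library 3 and doxorubicin libraries 2 and 3. Separation of the groups was seen for 13.4% of all tested symbols, with the doxorubicin hearts on the lower side for 7.06%, so 1 of 6 members is close to the background. Means were 353 ± 35.1 CPM in control and 296 ± 35.8 CPM in doxorubicin (SD, n = 3). The log2 fold change was -0.25 (SE 0.18, 95% interval -0.64 to 0.13), a fold of 0.840 with an interval of 0.643 to 1.10. The adjusted p was 0.753 in edgeR's quasi-likelihood test. It was -0.16 without control library 1 and -0.15 without doxorubicin library 1, the lowest library.

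The sarcoglycans with counts did not move together. Sgca, which encodes alpha-sarcoglycan, measured 381, 267 and 333 CPM in control rats 1 to 3 and 301, 294 and 258 CPM in doxorubicin rats 1 to 3. Control library 1 was the highest and doxorubicin library 3 the lowest, and control library 2 lay among the doxorubicin values. For Sgca the fitted log2 fold change was -0.20 (SE 0.19, 95% interval -0.60 to 0.20), with an adjusted p of 0.817 in edgeR's test. Sgcb, which encodes beta-sarcoglycan, measured 199, 282 and 289 CPM in control rats 1 to 3 and 259, 256 and 305 CPM in doxorubicin rats 1 to 3. Here the order was turned, with control library 1 lowest and doxorubicin library 3 highest. For Sgcb it was 0.09 (SE 0.19, 95% interval -0.32 to 0.51), with an adjusted p of 0.928 in edgeR's test, and it was -0.055 without control library 1. Both proteins belong to 1 membrane complex, and the ratio of Sgca to Sgcb counts does not depend on scaling. It was 1.91, 0.948 and 1.15 in control rats 1 to 3 and 1.16, 1.15 and 0.844 in doxorubicin rats 1 to 3. Control library 1 stood above the other 5 libraries in this ratio, and the groups overlapped.

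Itga7, the gene of the muscle laminin receptor integrin alpha 7, measured 674, 454 and 517 CPM in control rats 1 to 3. In doxorubicin rats 1 to 3 it measured 550, 442 and 394 CPM. Control library 1 was the highest and doxorubicin library 3 the lowest, and doxorubicin library 1 was above control libraries 2 and 3. Means were 549 ± 113 CPM in control and 462 ± 79.8 CPM in doxorubicin (SD, n = 3). Itga7 had a log2 fold change of -0.25 (SE 0.20, 95% interval -0.69 to 0.19), with an adjusted p of 0.789 in edgeR's test, and it was -0.07 without control library 1. Set against the other laminin receptor, there were 1.72, 1.34 and 1.59 Itga7 counts per Dag1 count in control rats 1 to 3. In doxorubicin rats 1 to 3 there were 2.16, 1.39 and 1.24. The doxorubicin libraries held both the highest and the lowest of these ratios.

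Vcl measured 215, 365 and 344 CPM in control rats 1 to 3 and 308, 296 and 276 CPM in doxorubicin rats 1 to 3. All doxorubicin values fell between control library 1 and the other controls. Means were 308 ± 81.1 CPM in control and 293 ± 16.0 CPM in doxorubicin (SD, n = 3). Vcl had a log2 fold change of -0.07 (SE 0.21, 95% interval -0.52 to 0.38), with an adjusted p of 0.957 in edgeR's test. Without control library 1 it was -0.27, and without control library 2 it was 0.08, so it had no settled direction. The genes most like Vcl over the 6 libraries, of 8607 symbols with a mean of at least 5 CPM, were Pibf1, Tbk1 and Hmgcs1. Pearson's r of log2 CPM was 0.991, 0.991 and 0.984 for these, as a description over 6 libraries that share their scaling and the low value of control library 1.

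**Figure D2:**
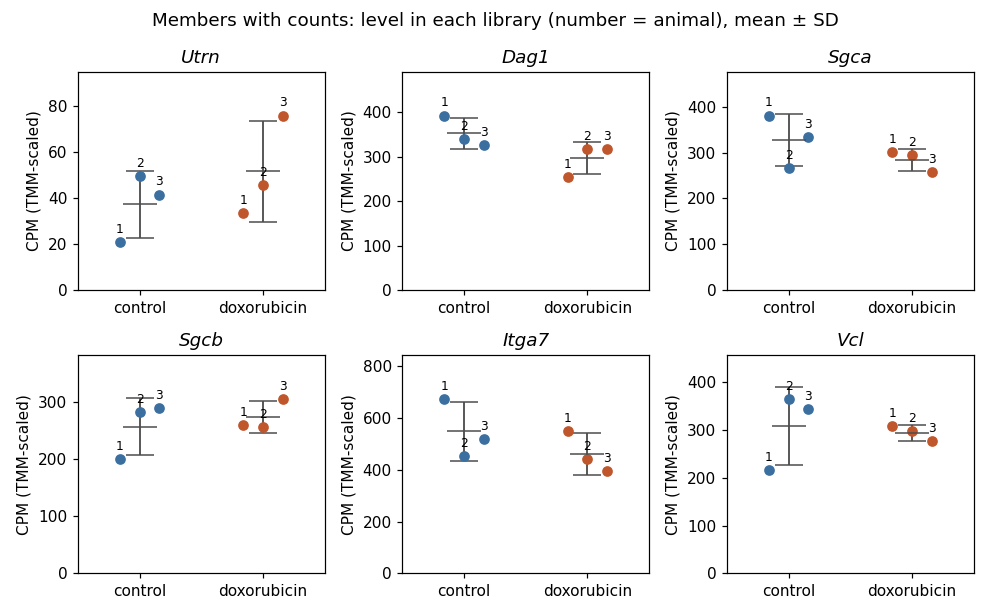
Each panel shows 1 member with its level in CPM (vertical axis, from 0) in the 3 control and 3 doxorubicin libraries; points are animals numbered 1 to 3, and bars are mean ± SD. Dag1 is the member without overlap between groups, and Utrn runs from 21.0 CPM in control library 1 to 75.7 CPM in doxorubicin library 3.

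Most members had their extreme values in the same libraries. Total counts ranged from 2219685 to 3508282 per library. Control library 1 stood apart on the first principal component of all tested symbols, at -43.3, and doxorubicin library 3 was at the other end, at 26.6. These libraries were also the extremes for 4 of the 6 members: Utrn and Sgcb were lowest in control library 1 and highest in doxorubicin library 3, and Sgca and Itga7 were the reverse. Relative to its mean over the 6 libraries, Utrn was at -0.95 in control library 1 and 0.86 in doxorubicin library 3 on the log2 scale. Genes with a long span shared part of this: for the 106 tested symbols spanning 400 kb or more in GRCr8, a class that holds Utrn at 503.4 kb, the medians in these libraries were -0.27 and 0.23. That class had a median log2 fold change of 0.13, against -0.05 for the 4022 symbols spanning under 20 kb. With a per-library offset for gene span the log2 fold change of Utrn was 0.36 and that of Dag1 -0.34, neither past the threshold. Sgcb, which spans 14999 bases, went with Utrn despite its short span. Control library 1 and doxorubicin library 3 belong to different groups, and the part of library differences in the members' values was not tested.

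**Figure D3:**
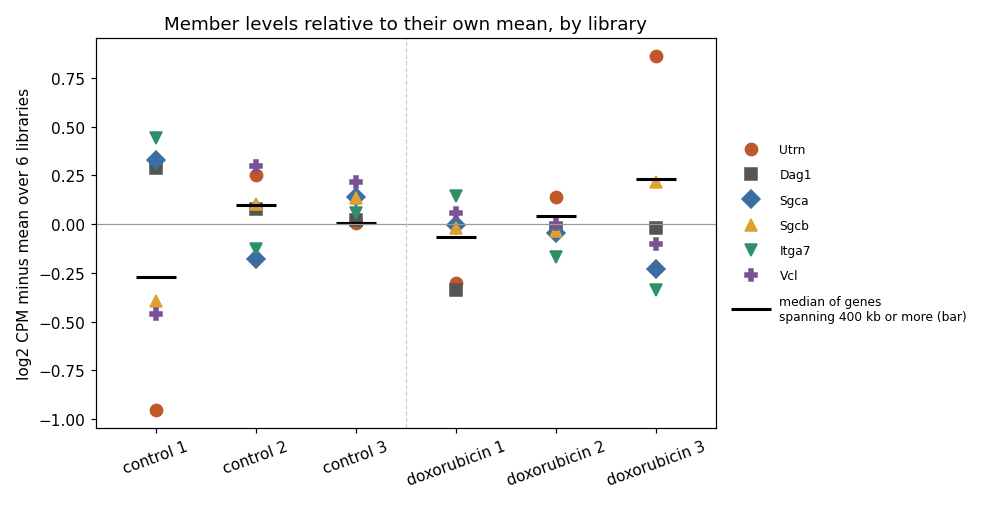
Symbols give each member's log2 CPM minus its own mean over the 6 libraries (vertical axis) in each library (horizontal axis), and black bars give the median of 106 genes spanning 400 kb or more. Utrn runs from -0.95 in control library 1 to 0.86 in doxorubicin library 3, and Itga7 is highest and lowest in the same libraries in the opposite order.

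The labelled tissue was checked on fixed marker lists. Of 10 cardiomyocyte markers 9 had a row and 0 of these were at 0 counts. Their summed level was 112406 to 127658 CPM in control and 94295 to 106128 CPM in doxorubicin hearts, without overlap. Of these 9 markers 7 were under 0 in log2 fold change and 2 over 0, against 4407 under 0 and 4798 over 0 of all 9205 symbols. The most abundant markers weigh most in the sum. Among them Myh6 had group means of 24591 CPM in control and 14821 CPM in doxorubicin, and its groups overlapped. Of the 9 markers, 1 had an adjusted p under 0.05 in edgeR's test, against 0.0543% of all symbols. At an unadjusted p under 0.05 there were 3, all on the lower side, against 4.11% of all symbols. Each doxorubicin heart was below each control heart for 3 of the 9, against 7.06% of all symbols. Of skeletal muscle markers, whose tissue also uses this complex, Ckm, which the heart also expresses, was the 1 of 9 that passed the filter on counts. The summed macrophage markers were 268 to 282 CPM in control and 322 to 528 CPM in doxorubicin hearts. In log2 fold change 9 of 10 macrophage markers were over 0, against 4798 of 9205 symbols. Of the 10, 0 had an adjusted p under 0.05 in edgeR's test. Endothelial markers (2489 to 2811 against 1998 to 2576 CPM), fibroblast markers (2573 to 2865 against 2088 to 3567 CPM) and smooth muscle and pericyte markers (709 to 1075 against 811 to 1075 CPM) overlapped between control and doxorubicin. Schwann and neural markers summed to 10.5 to 29.3 CPM in control and 31.8 to 38.9 CPM in doxorubicin hearts, without overlap. Within that list Ncam1, a cell adhesion gene, had a log2 change of 2.33 (SE 0.39) and an adjusted p of 0.0518 in edgeR's test. Without Ncam1 the sums were 7.10 to 22.7 CPM in control and 9.63 to 16.8 CPM in doxorubicin hearts, which overlap. Summed erythroid markers were 6966 CPM in control library 1 and 675 to 2533 CPM in the others. In whole heart tissue, fewer cardiomyocytes and less of a transcript in each cannot be told apart, and the part of cell makeup in the values of Dag1 and the other members was not tested.

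No other tested gene of the dystrophin complex passed the adjusted threshold. Of 13 such genes fixed as a list, 12 had a row and 7 were tested, and 0 had an adjusted p under 0.05 in edgeR's test, with 1, on the lower side, at an unadjusted p under 0.05, against 4.11% of all symbols. Their median log2 fold change was -0.26, and the doxorubicin and control values were fully apart for 2 genes, 1 higher (6.39% of all symbols) and 1 lower (7.06%). Cav3, the muscle caveolin gene, was at -0.31 (SE 0.23), and at 0.019 without control library 1. Sgce, the epsilon-sarcoglycan gene, was at 0.17 (SE 0.27), and at -0.059 without doxorubicin library 2. Not tested for low counts were Sntb2, Sntg1, Sntg2, Sgcz and Nos1, with at most 15 counts in any library.

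Outside the membrane, of 19 genes of laminins and other basement membrane ligands and of the enzymes that build the laminin-binding sugar of dystroglycan, 16 were tested. In edgeR's test 0 had an adjusted p under 0.05 and 0 an unadjusted p under 0.05, and the median log2 fold change was -0.03. Lamb2, which encodes a laminin beta chain, was at 0.31 (SE 0.19), from 997 ± 76.9 CPM in control to 1236 ± 245 CPM in doxorubicin hearts (SD, n = 3). The groups overlapped for Lamb2, with doxorubicin library 3 at 984 CPM inside the control range of 935 to 1083 CPM. Of the 16 tested genes, 1 lay below control in each doxorubicin heart, against 7.06% of all symbols, and the others overlapped.

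On the integrin and talin side of the costamere 17 of 22 genes were tested, with 0 past the adjusted threshold in edgeR's test, 1, on the higher side, at an unadjusted p under 0.05, against 4% of all symbols, and a median log2 fold change of 0.01. The gene was Sorbs2, which encodes a vinculin-binding adaptor of Z-discs and costameres. It measured 294, 396 and 320 CPM in control rats 1 to 3 and 603, 488 and 669 CPM in doxorubicin rats 1 to 3. Each doxorubicin value was above each control value, for a fitted log2 change of 0.80 (SE 0.19, 95% interval 0.39 to 1.22). The adjusted p was 0.158 in edgeR's test and 0.0118 in DESeq2, and over the 21 alternatives it ran from 0.0118 to 0.517. Sorbs2 was past the threshold in 2 of these 21, DESeq2 and edgeR without the filter. Vcl, the gene of its binding partner, was at -0.07. Itga5, an integrin alpha chain of fibronectin receptors, was at 0.31 (SE 0.18) without overlap. In this list 2 of 17 genes, Sorbs2 and Itga5, lay above control in each doxorubicin heart, against 6.39% of all symbols. Lims2 and Itga6, genes of an adaptor of the integrin-linked kinase and of a laminin-binding integrin chain, were at -0.36 (SE 0.22) and -0.23 (SE 0.23).

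Of 24 genes of cytoskeletal linkers and membrane repair 18 were tested, with 0 past the adjusted threshold in edgeR's test, 1, on the higher side, at an unadjusted p under 0.05, against 4% of all symbols, and a median log2 fold change of 0.11. This 1 was Flnc. Flnc, which encodes filamin C, an actin crosslinker that binds sarcoglycans, measured 398, 393 and 395 CPM in control rats 1 to 3. In doxorubicin rats 1 to 3 it measured 787, 490 and 541 CPM, so that each doxorubicin heart was above each control heart. For Flnc the fitted log2 change was 0.62 (SE 0.20, 95% interval 0.18 to 1.05), with an adjusted p of 0.383 in edgeR's test, and 0.39 without doxorubicin library 1. Csrp3, the gene of muscle LIM protein at the Z-disc, was at 0.46 (SE 0.22) without overlap, and at 0.20 without doxorubicin library 1. Dysf, the membrane repair gene dysferlin, was at -0.31 (SE 0.18), and Actn2, the gene of the Z-disc actinin, at -0.21 (SE 0.18). In this list 4 of 18 genes lay above control in each doxorubicin heart, against 6.39% of all symbols, namely Flnc, Csrp3, Anxa1 and Anxa5. The genes of annexins, Anxa1 and Anxa5, were named after their values were seen.

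**Figure D4:**
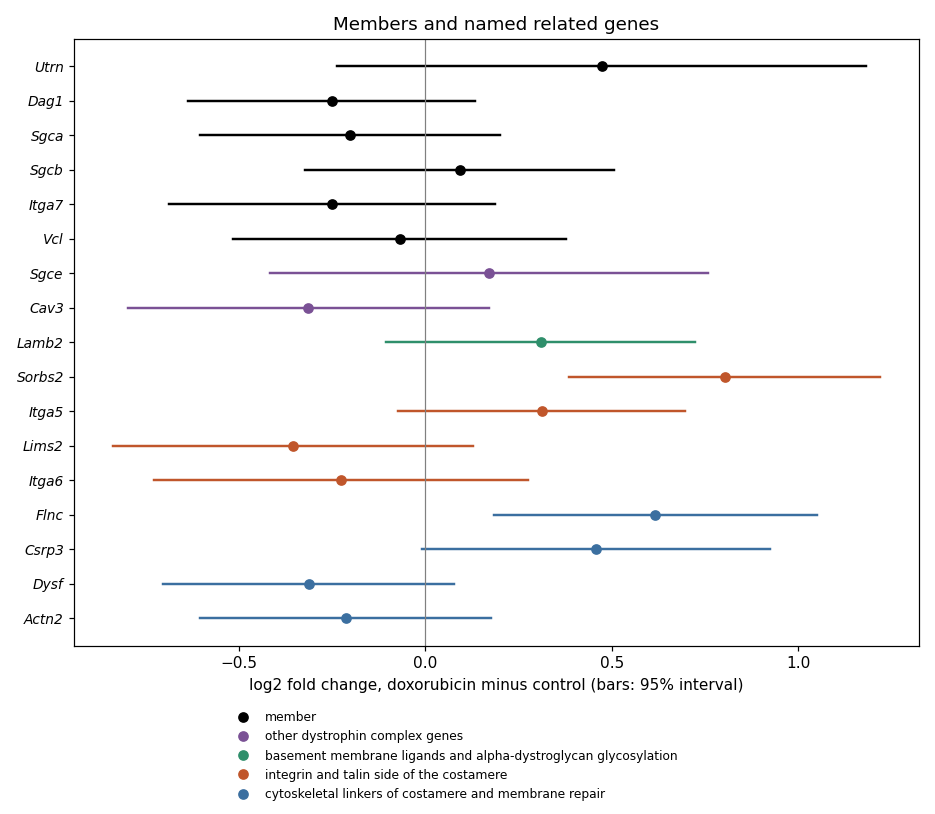
Points give the log2 fold change, doxorubicin minus control (horizontal axis), and lines its 95% interval for the 6 members (black) and 11 related genes named by rule (colours by list). The intervals of all 6 members include 0, and those of Sorbs2 and Flnc do not, before adjustment for the number of symbols tested.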

How the data were processed

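RNA of 6 rat hearts was counted per gene. The deposited values are raw read counts per table row, without normalization. Per the submitters' processing notes, FastQC, Trimmomatic, STAR and HTSeq were used with the build mRatBN7.2; their roles, the counting mode, the use of strand and the annotation were not given in the sources used here. The table had 18473 rows for 17487 symbols, of which 599 stood on several rows, and rows were summed per symbol. Gene spans came from the RefSeq table of GRCr8, which matched 89.1% of symbols.

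Doxorubicin and control groups were taken from the sample titles. The test was edgeR 4.0.16 (R 4.3.3), robust quasi-likelihood, trimmed mean of M-values scaling and filterByExpr (minimum count 10, minimum total 15), which kept 9205 symbols. P-values were adjusted by Benjamini-Hochberg over all of them, with a threshold of 0.05. The standard error was the absolute log2 fold change over the square root of F, and 95% intervals used the fit's t quantile. Log2 CPM used a prior count of 2. The fit was tested on simulated data. Alternatives used other scalings and filters, DESeq2 1.42.0, voom (limma 3.58.1), a replicate block, a gene span offset, other treatments of repeated symbols, and each library left out. The intervals of fold changes include the estimated spread between animals, and floors for counts of 0 cover counting error only.

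The members and lists were chosen with earlier results of these data known. Named were all members. Of each related list the genes past the threshold were to be named, or else the 2 tested genes with the smallest p in each direction. Some genes this rule selects are not reported here by name, though list counts include them. For Dmd and Vcl the 3 most similar symbols were to be named, which Dmd, at 0 counts, did not allow. Python 3.11.15 with pandas 2.3.3 and matplotlib 3.10.9 was used for tables and figures.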

Additional observations from a re-analysis of the deposited data

How the results depend on the processing

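No member passed the adjusted threshold in any of the 21 alternatives, and none had an unadjusted p under 0.05 in edgeR, DESeq2 or voom; the lowest adjusted p of a member was 0.571, for Utrn without control library 2. Fitted log2 fold changes spanned 0.094 to 0.72 for Utrn, -0.34 to -0.15 for Dag1, -0.32 to -0.074 for Sgca, and -0.39 to -0.068 for Itga7, each in one direction throughout. With 1 library left out, Sgcb ran from -0.055 (without control library 1) to 0.19, and Vcl from -0.27 to 0.078 (without control library 2), with 0.019 without control library 3. Among related genes, Sgce ran from -0.059 (without doxorubicin library 2) to 0.39, and Cav3 from -0.47 to 0.019 (without control library 1). The members' median, -0.14, was -0.056 with library size only, and ranged from -0.14 to -0.071 with 1 library left out.

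Over all symbols 5 passed, against 61 with no filter, 75 with DESeq2, 13 with the gene span offset, 1 with a mean CPM of at least 5, 1 with non-robust dispersion, and 1 with symbols on 1 row only. Library size only gave 0 and voom 0 (713 and 740 at an unadjusted p under 0.05). Leaving out 1 library gave 0 to 35. The replicate block gave 13, and the gene span offset with the replicate block 15. Neither changed the call of a member or of the 11 related genes named by rule. Same-numbered animals did not deviate together (r 0.02, -0.19 and -0.06), and no control library correlated best with the doxorubicin library of its own number. The Utrn to Dmd ratio and its alternatives were not run because Dmd was at 0. The cause of these shifts was not tested. Depth limits mainly Utrn, with 55 to 257 counts per library.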

Other observations

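Of 8607 symbols with a mean of at least 5 CPM, the one most like Utrn over the 6 libraries was Rgs5, a gene known from pericytes, named after its values were seen. Rgs5 measured 50.02, 107 and 94.0 CPM in control rats 1 to 3 and 76.4, 94.2 and 143 CPM in doxorubicin rats 1 to 3. The libraries stood in the same order as for Utrn, lowest in control library 1 and highest in doxorubicin library 3. For Rgs5 the fitted log2 change was 0.32 (SE 0.28) and the adjusted p was 0.804 in edgeR's quasi-likelihood test. The symbol most like Dag1 was Pomt1, an enzyme gene of the sugar on dystroglycan, also named after its values were seen. Pomt1 measured 26.7, 23.1 and 22.2 CPM in control rats 1 to 3 and 18.6, 22.5 and 22.4 CPM in doxorubicin rats 1 to 3, with a log2 fold change of -0.18 (SE 0.24). Each was the nearest of all these symbols over 6 libraries, so a close match is to be found for any gene.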
